A study of Mus musculus with 24 samples.

Results

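Induction of uncoupling protein 1 (UCP1) was examined in C2C12 cells, an immortalised mouse myoblast line, while they were kept in oleic acid. The 4 libraries labelled Dox_OA were set against the 4 labelled OA, 8 of the 24 libraries in the study. All 8 came from cells that had been infected with a lentivirus whose UCP1 insert is switched on by doxycycline, so the OA group carries the vector as well. Doxycycline, or water in equal volume, went on at 24 h after seeding, oleic acid at 300 µM followed another 24 h later, and RNA was taken after 16 h of fatty acid. The sources used here give neither the dose of doxycycline nor the amount of albumin that carried the oleic acid, and do not say whether the infected cells were a pool or 1 clone. No group had doxycycline without the vector, so effects of the drug and of UCP1 cannot be told apart. The study compared the same switch in 51 µM albumin (BSA and Dox_BSA) and in oleic acid with 1 µM oligomycin, an inhibitor of ATP synthase (OOA and Dox_OOA). These 4 groups, of 4 libraries each, serve here only to show where the response in oleic acid differs.

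UCP1 is a carrier of the inner mitochondrial membrane, known from brown fat, that lets protons return to the matrix without passing ATP synthase. Long-chain fatty acids activate it and purine nucleotides inhibit it, so a medium with oleic acid supplies both a fuel and an activator of the protein. Uncoupling lowers the membrane potential, and respiration then runs with less ATP made per oxygen used. Mitochondrial disturbance is often read out in the nucleus through ATF4, a transcription factor made when the initiation factor eIF2 is phosphorylated, whose targets make, import and charge amino acids.

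Expression was measured as FPKM, fragments scaled for gene length and library size, in 22027240 to 29410667 reads per library, as recovered from the FPKM steps, and 12904 genes reached at least 1 FPKM in at least 4 libraries. The first principal component of the 8 libraries held 26.8% of the variance and separated the groups, with OA between -16.4 and -7.5 and Dox_OA between 9.9 and 13. On the second component, which held 16.3%, Dox_OA library 4 lay at -20.5, apart from the rest at -4.1 to 12.8. The labelled cell type held against its markers. The 6 myoblast markers summed to 205 to 210 FPKM in OA and to 221 to 236 in Dox_OA, with none at 0. Of 13 adipocyte markers 7 were at 0 in all 8 libraries, among them Adipoq, Plin1 and Prdm16, and the list summed to 17.5 to 21.1 FPKM in OA and 21.7 to 24.4 in Dox_OA. Macrophage markers summed to 12.7 to 15 and 12.3 to 14.5 FPKM, with Adgre1, Itgam and Tyrobp at 0, and endothelial and epithelial markers stayed at or below 0.137 and 3.27 FPKM. The part of these markers in the results was not tested. In bulk RNA, fewer cells with a transcript and less of it per cell cannot be told apart.

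Doxycycline in oleic acid moved many genes by small amounts. Of the 12904 genes 1458 changed (11.3%), 553 upward (4.29%) and 905 downward (7.01%), at a limma adjusted p under 0.05. Changes are differences of log2(FPKM + 1), a scale on which low genes appear to move less than they do. The value after ± is the standard error (SE) of the fit. The median size among changed genes was 0.24, and 8 genes moved by at least 1 on this scale. Apart from small RNA genes and unnamed gene models these were Ucp1, Adgrg1 and Fam43a. Ratios of FPKM itself are larger for low genes, such as 5.2 for Etl4 and 0.474 for Trib3. The balance of rises and falls depended on the scaling. Rises were 37.9% of the changed genes as deposited, and 55.6% (721 up, 575 down) when each library was scaled to a fixed FPKM sum. The median over all genes was -0.01 as deposited and 0.02 with the fixed sum. Without OA library 2 the count of changed genes was 963, without Dox_OA library 2 the rises were 360, and with no minimum on FPKM 935 genes changed.

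**Figure D1:**
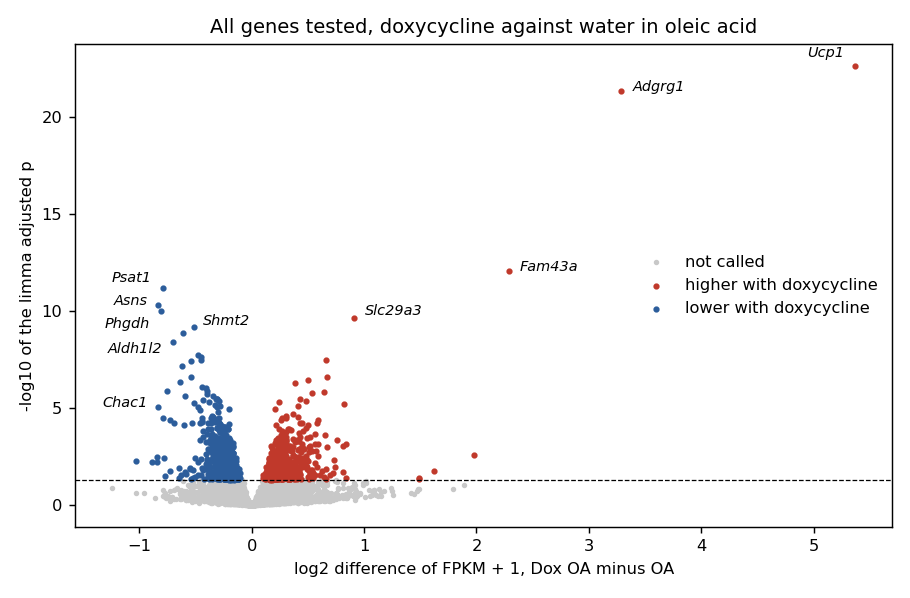
Each point is 1 of the 12904 genes tested. The horizontal axis is the log2 difference of FPKM + 1 between Dox_OA and OA, and the vertical axis is -log10 of the limma adjusted p, with the threshold dashed. Ucp1, Adgrg1 and Fam43a stand far to the right, and the genes farthest up on the left, Psat1, Asns and Phgdh, make amino acids.

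Ucp1 (ENSMUSG00000031710, chromosome 8, 84016981 to 84025081, plus strand, GRCm39 as in the deposited file) was at 6.46, 6.9, 7.67 and 6.32 FPKM in OA and at 339, 322, 319 and 309 FPKM in Dox_OA. Every doxycycline library was far above every water library, a 47.1-fold difference of the means (two-sided exact permutation p = 0.0286, the smallest that 4 against 4 libraries allow). The mouse gene and a transcript of the vector cannot be told apart in these values. Adgrg1 (chromosome 8, 95701379 to 95740845), an adhesion G protein-coupled receptor gene, was at 1.25, 1.14, 1.52 and 1.39 FPKM in OA and at 21.7, 22.2, 21.8 and 20.9 in Dox_OA. Fam43a (chromosome 16, 30418541 to 30421615) was at 8.78, 8.66, 6.33 and 8.16 FPKM in OA and at 44.1, 49.1, 39.6 and 38.9 in Dox_OA. All 4 libraries of Dox_OA lay far above OA, 16.3-fold for Adgrg1 and 5.38-fold for Fam43a. Slc29a3, a nucleoside transporter gene, went from 7.46 ± 0.212 to 14.9 ± 1.12 FPKM (SD, n = 4 in each group), again with no overlap. In log2 terms the rises were 3.29 ± 0.05 for Adgrg1, 2.29 ± 0.10 for Fam43a and 0.91 ± 0.06 for Slc29a3 (limma adjusted p at most 2.38e-10). In albumin the same genes rose by 3.14, 2.31 and 1.06, and the difference between the media did not pass for any of them (limma adjusted p = 0.588, 0.985 and 0.622).

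**Figure D2:**
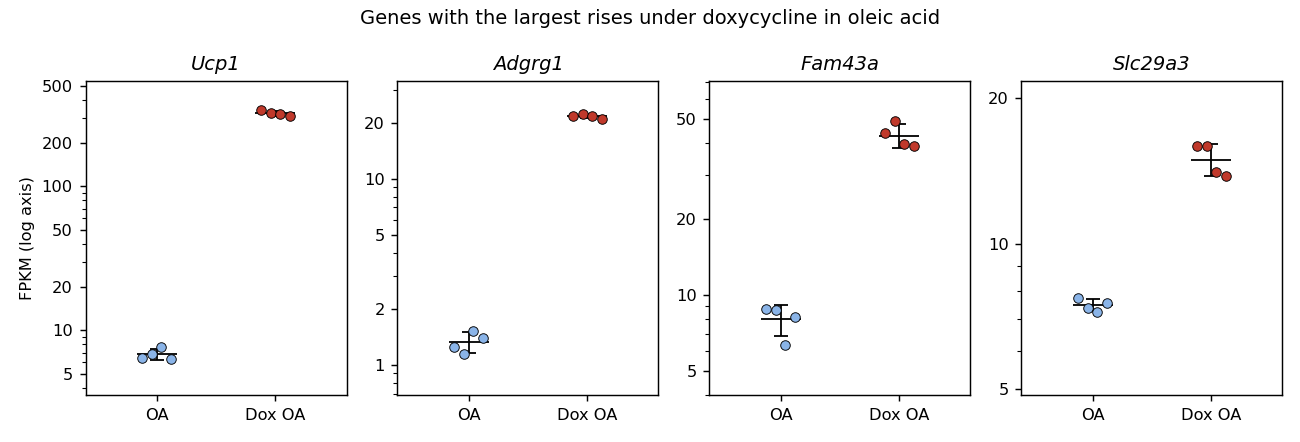
Points are FPKM of single libraries on a log axis, and bars are the mean and SD of 4 libraries, for Ucp1, Adgrg1, Fam43a and Slc29a3 in OA and Dox_OA. In all 4 genes the lowest Dox_OA library lies well above the highest OA library.

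Other protein-coding genes with the largest rises were lower in size. Csad, whose enzyme makes the precursor of taurine, was at 9.76, 10.7, 10.7 and 11.5 FPKM in OA and at 17.1, 17, 17.7 and 18.5 in Dox_OA. Xxylt1, which encodes a xylosyltransferase of Notch receptors, was at 20.3 ± 0.585 FPKM in OA and 32.7 ± 1.58 in Dox_OA. Gstm5, a glutathione transferase gene, was at 11 ± 0.68 and 17.6 ± 0.622 FPKM. The log2 rises of these were 0.67 ± 0.06, 0.66 ± 0.05 and 0.64 ± 0.07 (limma adjusted p at most 1.5e-06). Groups without overlap were a condition for the 15 largest rises and the 15 largest falls, so their separation is no further result. Of all genes 7.33% were separate with Dox_OA above and 10.9% with Dox_OA below. Mmp9, which encodes a gelatinase, rose from 5.35 ± 0.765 to 9.71 ± 1.06 FPKM, a log2 change of 0.76 ± 0.13 (limma adjusted p = 0.000429). The same 4 genes also rose in albumin, by 0.76, 0.72, 0.53 and 0.80. Coro6, a gene of the actin-binding coronins, rose by 0.81 ± 0.15 and Wfdc21, which encodes a secreted WAP-domain protein, by 0.84 ± 0.15 (limma adjusted p = 0.000966 and 0.000702). In albumin these changed by 0.13 and 0.31 and did not pass, but the difference between media did not pass either (limma adjusted p = 0.224 and 0.408). Etl4 (0.82), Pvalb (0.73), Ajm1 (0.67), Inha (0.66) and Wfdc17 (0.65) complete the list of the 15 largest rises, and Inha lost its call without OA library 4 (limma adjusted p = 0.0522). Etl4 was at 0.223 ± 0.03 FPKM in OA and 1.16 ± 0.122 in Dox_OA, a ratio of 5.2, and its log2 change was 1.96 with a pseudocount of 0.1 and 2.38 with limma-voom. It reached the minimum of 1 FPKM in doxycycline libraries and in none of the water libraries. Pvalb, a calcium-binding protein gene of fast muscle, changed by 1.39 and 1.52 in the same alternatives. It too passed the minimum through doxycycline libraries, and among water libraries only BSA library 3 reached it (1.02 FPKM). Etl4 and Csad overlap a gene on the other strand (Gm13328 and Zfp740). Use of strand in the counting is not stated, so reads of such pairs cannot be told apart.

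The falls with the smallest p-values, Psat1, Asns and Phgdh, were in genes that make amino acids. Of 38 measured ATF4 targets 21 fell, none rose and 17 did not pass, against 7.01% of all genes that fell. Their median log2 change was -0.28, with all 38 values below 0. Under the alternatives tried between 20 and 22 of them fell. The list and its members were chosen with earlier results of these data known. Several members are also in the lists of serine, amino acid and transporter genes below.

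The transcript of the factor itself was lower too. Atf4 (chromosome 15, 80139385 to 80141742) was at 126, 129, 134 and 114 FPKM in OA and at 84.2, 90.1, 93.3 and 84.2 in Dox_OA. The groups did not overlap, and the log2 change was -0.51 ± 0.06 (limma adjusted p = 5.55e-06). Atf5, a relative of Atf4 and its target, went from 59.7 ± 1.59 to 38.4 ± 1.64 FPKM (log2 change -0.62 ± 0.05). It overlaps Nup62 on the other strand. Eif2s1, the alpha subunit of eIF2, was at 29.2 ± 0.843 and 24 ± 1.02 FPKM (-0.27 ± 0.05). The list of the integrated stress response held 14 regulators, kinases and phosphatases of eIF2 included. Of these 5 fell (35.7%, against 7.01% of all genes), none rose and 9 did not pass (median -0.11). Ddit3, which encodes the stress factor CHOP, did not pass, at 9.66 ± 0.69 and 9.13 ± 1.08 FPKM with overlapping libraries (log2 change -0.08 ± 0.07, limma adjusted p = 0.542), and it overlaps Mars1 on the other strand. Atf3 (-0.12 ± 0.13), Fgf21 (-0.22 ± 0.13) and Gdf15 (-0.13 ± 0.16), stress-induced genes at 1.5 FPKM or less on average, did not pass either.

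Asparagine and serine synthesis stood at the front. Asns (chromosome 6, 7675169 to 7693254, minus strand), the asparagine synthetase gene, was at 27, 26.9, 28.3 and 28.9 FPKM in OA and at 15.3, 14.3, 15.2 and 16.2 in Dox_OA. The gap between the groups was many times the spread within them, a ratio of 0.549 and a log2 change of -0.83 ± 0.05 (limma adjusted p = 4.67e-11). Phgdh, the first enzyme of serine synthesis, was at 64.5, 69.8, 67.7 and 68.9 FPKM in OA and at 40, 38.2, 39.3 and 35.6 in Dox_OA. Psat1, the next enzyme of that path, was at 41.9, 43.4, 42.4 and 44.1 FPKM in OA and at 25.5, 23.8, 25.2 and 23.2 in Dox_OA. Psph, the last, was at 7.14 ± 0.531 and 4.64 ± 0.409 FPKM, and it overlaps Cct6a on the other strand. All 3 steps of serine synthesis were thus lower, with log2 changes of -0.81 ± 0.05, -0.79 ± 0.04 and -0.53 ± 0.07 (limma adjusted p at most 6.3e-05). The mitochondrial folate enzymes that use serine followed, with Shmt2 at -0.51 ± 0.03, Mthfd2 at -0.64 ± 0.06 and Aldh1l2 at -0.70 ± 0.05. Ahcy, which clears S-adenosylhomocysteine, fell by 0.43 on the log2 scale. Of 21 serine and one-carbon genes 10 fell (47.6%, against 7.01% of all genes), 1 rose (4.76%, against 4.29%) and 10 did not pass.

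Bcat1, a branched-chain aminotransferase gene, was at 7.27 ± 0.219 FPKM in OA and 4.68 ± 0.32 in Dox_OA (log2 change -0.54 ± 0.05). Aldh18a1 of proline synthesis (-0.38 ± 0.04) and Gpt2, the mitochondrial alanine aminotransferase (-0.36 ± 0.05), fell as well. Of 18 enzymes of amino acid synthesis outside the serine path, Asns included, 7 fell (38.9%), 1 rose (5.56%) and 10 did not pass. The riser was Glul, glutamine synthetase, from 35.2 ± 1.64 to 42.3 ± 2.35 FPKM (0.26 ± 0.06, limma adjusted p = 0.00486). Among 20 amino acid transporters 4 fell (20%, against 7.01% of all genes) and 1 rose (5%, against 4.29%). Slc7a5, the light chain of the leucine carrier LAT1, was at 44.1, 47.2, 45.1 and 46.7 FPKM in OA and at 29, 29.8, 28.5 and 30.9 in Dox_OA (-0.61 ± 0.04, limma adjusted p = 1.28e-09). Its partner Slc3a2 fell by 0.26 and the arginine carrier Slc7a1 by 0.48, whereas Slc7a2, another carrier of arginine, rose by 0.23 ± 0.04 (limma adjusted p = 0.00117).

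Chac1 (chromosome 2, 119181710 to 119184862), which encodes a glutathione-degrading enzyme, was at 10.7, 11.2, 10.5 and 10.8 FPKM in OA and at 5.45, 5.06, 5.18 and 7.02 in Dox_OA. Trib3, a pseudokinase gene, was at 3.59, 3.82, 3.84 and 4.45 FPKM in OA and at 1.46, 1.96, 2.42 and 1.6 in Dox_OA. Neither gene's groups overlapped, although Dox_OA library 4 stood above its group for Chac1, and the log2 changes were -0.83 ± 0.10 and -0.79 ± 0.11 (limma adjusted p = 8.78e-06 and 3.42e-05). Sesn2 and Eif4ebp1, whose proteins restrain mTORC1 signalling and cap-dependent translation, fell by 0.36 and 0.40.

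Promoters of these genes are known for the C/EBP-ATF response element, a composite site that ATF4 binds with C/EBP partners. Its core was searched as TGATGNAA on both strands of RefSeq promoter windows, which run from 250 bases before to 50 after a start site in GRCm38.p6, another build than that of the expression values. It was in 12 of 42 windows of the ATF4 list (28.6%, 33 of 39 genes matched) and in 3.97% of all 32851 windows, or 2.12% of the windows of genes tested. The stricter TGATGCAA, which is one form of the same core, was in 9 of the 42 (21.4%) and in 0.895% of all. The list names known ATF4 targets, so the excess is no independent result. The 250 bases before the start sites of Asns and Chac1 are printed because these are the steepest falls with a match, each with the core in capitals and in the direction of the gene. In Asns (chr6:7693210-7693459, minus strand) the core begins 23 bases before the start site, and in Chac1 (chr2:119350992-119351241, plus strand) it lies on the other strand, 193 bases before.
Asns: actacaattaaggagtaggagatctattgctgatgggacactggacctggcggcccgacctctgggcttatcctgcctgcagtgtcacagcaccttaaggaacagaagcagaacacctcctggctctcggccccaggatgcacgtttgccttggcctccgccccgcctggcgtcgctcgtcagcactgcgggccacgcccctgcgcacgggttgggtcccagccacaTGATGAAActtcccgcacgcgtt
Chac1: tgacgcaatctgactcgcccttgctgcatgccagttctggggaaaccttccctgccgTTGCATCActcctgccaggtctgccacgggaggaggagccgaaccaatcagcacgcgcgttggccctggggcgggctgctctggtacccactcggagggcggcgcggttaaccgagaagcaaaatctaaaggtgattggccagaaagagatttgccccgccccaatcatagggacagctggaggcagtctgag

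Among ATF4 targets with a match, more missed the threshold than fell. Chac1, Trib3, Asns, Nupr1 and Pck2 fell. Atf3, Slc7a11, Fgf21, Slc1a4, Pycr1, Jdp2 and Vldlr had a match too and did not pass. The 30-base stretches below, read on the strand of the core, set Trib3 and Pck2, which fell, beside Atf3 and Slc1a4, which did not pass. Slc1a4 was chosen after its value was seen. Pck2, the mitochondrial phosphoenolpyruvate carboxykinase, changed by -0.33 (limma adjusted p = 5.09e-05), and Slc1a4, a carrier of alanine and serine, by -0.08 (limma adjusted p = 0.2). The stretches lie at chr2:152344028-152344057, chr14:55540152-55540181, chr1:191183425-191183454 and chr11:20332699-20332728 of GRCm38.p6.
Trib3: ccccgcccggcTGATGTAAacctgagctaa
Pck2: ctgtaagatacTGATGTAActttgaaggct
Atf3: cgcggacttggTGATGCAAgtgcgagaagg
Slc1a4: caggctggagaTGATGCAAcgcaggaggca

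**Figure D3:**
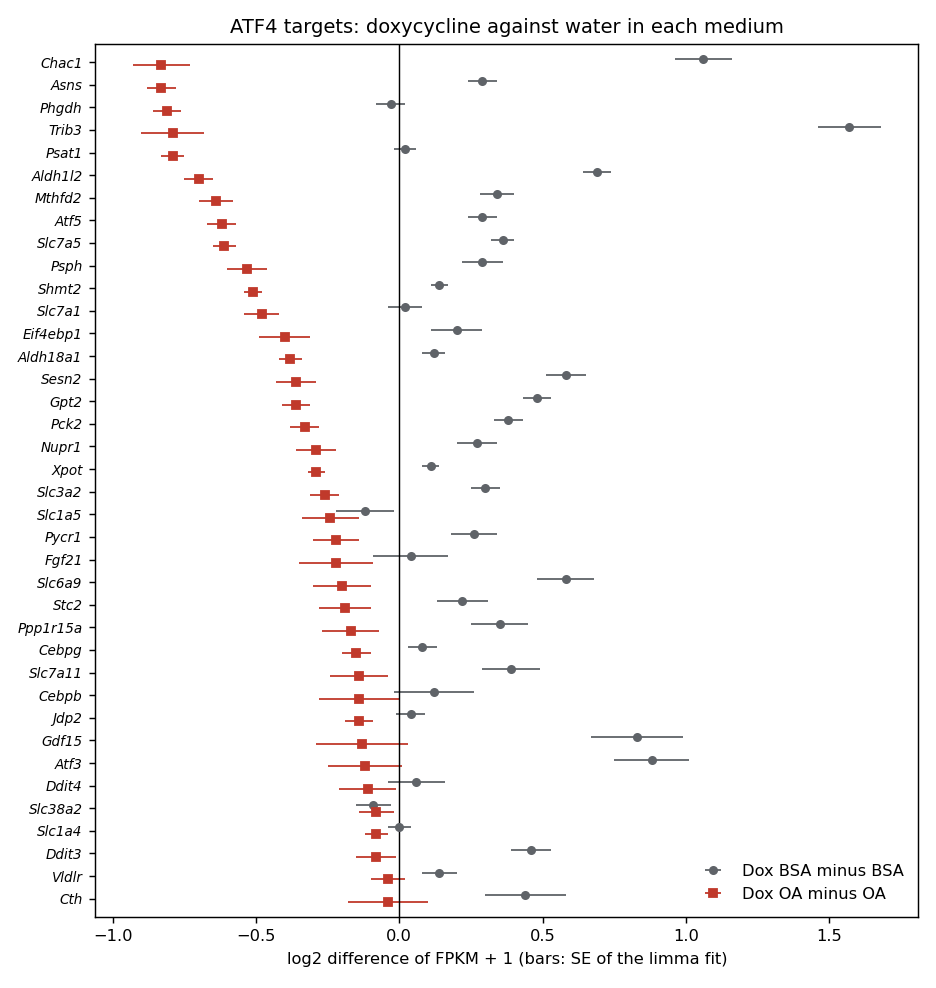
Points are log2 differences of FPKM + 1, doxycycline minus water, for the 38 measured ATF4 targets in oleic acid (squares) and in albumin (circles), with the SE of the limma fit as bars. All squares lie left of 0, and 34 of the 38 circles lie right of it.

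Genes that charge transfer RNA with amino acids fell as a block on the cytosolic side. Of 20 cytosolic aminoacyl-tRNA synthetases 17 fell (85%, against 7.01% of all genes), none rose and 3 did not pass (median -0.25). Under the alternatives 16 to 17 fell. Nars, which charges asparagine, was at 61.3, 62.4, 68 and 65.8 FPKM in OA and at 45.8, 44.7, 46.9 and 45.8 in Dox_OA. Tars, for threonine, was at 34.1, 34.4, 36.6 and 35.4 FPKM in OA and at 25.1, 24.9, 27.3 and 24.7 in Dox_OA. The groups were apart for both, with log2 changes of -0.48 ± 0.04 and -0.45 ± 0.04 (limma adjusted p = 1.9e-08 and 2.25e-08). Gars (-0.45), Aars (-0.44) and Iars (-0.41) moved by nearly the same amount, while Qars (0.01), Dars (-0.04) and Wars (-0.14), chosen after their values were seen, did not pass. None of 17 mitochondrial synthetases passed in either direction, with a median of -0.04 and values between -0.17 and 0.11. The core TGATGNAA was in 5 of 13 windows of the cytosolic list (38.5%) and in 2.12% of the windows of genes tested. Genes that charge amino acids are known ATF4 targets, so this excess is no independent result either. The stretches of the core in Tars (chr15:11399655-11399684), Iars (chr13:49682126-49682155) and Gars (chr6:55037960-55037989) are shown because these genes fell by nearly the same amount.
Tars: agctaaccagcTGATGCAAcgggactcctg
Iars: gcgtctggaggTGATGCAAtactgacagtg
Gars: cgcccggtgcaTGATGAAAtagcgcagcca

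Many ribosome assembly genes fell, and few ribosomal protein genes did. Of 33 genes of the MYC network and ribosome biogenesis 18 fell (54.5%, against 7.01% of all genes). None rose and 15 did not pass (median -0.23). Ncl, the nucleolin gene, was at 97.4, 97.2, 100 and 112 FPKM in OA and at 82.5, 77.4, 87.8 and 85.2 in Dox_OA (log2 change -0.28 ± 0.05, limma adjusted p = 0.000411). Dkc1, the pseudouridine synthase of ribosomal RNA (-0.36 ± 0.06), Npm1, nucleophosmin (-0.33 ± 0.06), and Bop1, an assembly factor of the large subunit (-0.27 ± 0.05), were lower with no overlap of the groups. Odc1, the first enzyme of polyamine synthesis, fell by 0.24. Myc itself was at 35.1 ± 0.212 FPKM in OA and 32.6 ± 3.8 in Dox_OA, with overlapping libraries (-0.11 ± 0.06, limma adjusted p = 0.284). Dkc1 and Bop1 overlap genes on the other strand. Of 52 cytosolic ribosomal protein genes 2 fell (3.85%, against 7.01% of all genes) and 50 did not pass, with a median of -0.05. Many of these genes have near-identical pseudogenes, so their values are uncertain.

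Of 22 chaperones and unfolded protein response genes of the endoplasmic reticulum (ER) 12 fell and none rose (median -0.20). The share of falls was 54.5%, against 7.01% of all genes. Hspa5, the ER chaperone BiP, was at 240, 252, 228 and 232 FPKM in OA and at 204, 206, 188 and 197 in Dox_OA. The groups were separate by a margin about as wide as the spread within them, and the log2 change was -0.26 ± 0.04 (limma adjusted p = 8.26e-05). P4hb, a disulfide isomerase, fell by 0.29, Herpud1, a factor of ER-associated degradation, by 0.33 and Hsp90b1, the ER HSP90, by 0.22. The ER stress response element is bound by ATF6 with NF-Y. It was searched on both strands as CCAAT and CCACG with 9 bases of any kind between them. The element was in 9 of 20 windows of this list (45%), in 0.119% of all and in 0.14% of the windows of genes tested. The list names unfolded protein response genes, already known for this element, so the excess is no independent result. The 250 bases before the start site of Hspa5 (chr2:34771840-34772089, plus strand, GRCm38.p6) are shown with the match in capitals, which begins 65 bases before the start.
Hspa5: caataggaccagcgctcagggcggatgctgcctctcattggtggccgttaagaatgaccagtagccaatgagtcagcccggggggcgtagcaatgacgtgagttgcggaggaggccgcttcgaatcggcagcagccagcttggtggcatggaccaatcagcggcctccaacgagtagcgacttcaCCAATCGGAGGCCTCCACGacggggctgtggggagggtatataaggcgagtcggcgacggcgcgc

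The proteasome fell across its parts by small steps. Of 31 subunits 19 fell (61.3%, against 7.01% of all genes), none rose and 12 did not pass (median -0.17). All 31 values lay below 0. Psma6 of the core ring was at 107, 109, 106 and 104 FPKM in OA and at 85.8, 83.8, 93.4 and 88.2 in Dox_OA (log2 change -0.28 ± 0.04, limma adjusted p = 9.71e-05). The ATPase subunit Psmc4 (-0.26 ± 0.04) and the scaffold subunit Psmd2 (-0.22 ± 0.04) fell too. Of 27 mitochondrial chaperones, proteases and import genes 7 fell (25.9%, against 7.01% of all genes) and none rose. Hspd1 (HSP60) was at -0.33 ± 0.06 and Hspa9 (mortalin) at -0.31 ± 0.04. Without OA library 1, 4 of the 27 fell. Among 19 cytosolic heat shock genes 5 fell (26.3%, against 7.01% of all genes), Hsp90aa1 among them (-0.30 ± 0.05), and 1 rose (5.26%, against 4.29%). The riser was Hspb1, a small heat shock protein, from 49.1 ± 3.45 to 63.2 ± 3.03 FPKM (0.36 ± 0.07, limma adjusted p = 0.00176).

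Of 36 genes of the G2 and M phases 27 fell (75%, against 7.01% of all genes). None rose and 9 did not pass (median -0.26, all 36 values below 0). Plk1, a mitotic kinase, was at 59.5, 62.1, 58.3 and 58.8 FPKM in OA and at 44.2, 42.7, 45.6 and 40.5 in Dox_OA. Cdc20, an activator of the anaphase-promoting complex, was at 121, 120, 121 and 117 FPKM in OA and at 85.4, 86, 94.4 and 81.7 in Dox_OA. Both fell by 0.46 on the log2 scale with a clear gap between groups (limma adjusted p = 1.34e-05 and 6.12e-05). Bub1b of the spindle checkpoint (-0.35 ± 0.05), the cyclin gene Ccna2 (-0.34 ± 0.04) and the spindle gene Tpx2 (-0.33 ± 0.04) fell as well. Cdc20 and Ccna2 overlap genes on the other strand. S phase genes moved less, with 11 of 35 lower (31.4%, against 7.01% of all genes) and none higher. Their median was -0.16, but all 35 values were at or below 0. Mcm5 of the replicative helicase (-0.28 ± 0.06), Rrm1 (-0.19 ± 0.03) and Rrm2 (-0.22 ± 0.05) of ribonucleotide reductase were among the 11. That count ran from 5, without OA library 2, to 17 with limma-voom. Of 14 cyclin D, CDK and CDK inhibitor genes 2 fell (14.3%, against 7.01% of all genes), Ccnd1 by 0.22. Mki67, a proliferation marker, did not pass, at 50.9 ± 4.76 and 45.9 ± 2.4 FPKM (-0.14 ± 0.08, limma adjusted p = 0.242).

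Mitotic promoters are known for the cell cycle genes homology region, through which the DREAM complex and B-MYB act. Its letters TTTGAA, searched on both strands, were in 22 of 31 windows of the G2 and M list (71%). They were in 17.9% of all windows and in 11.9% of the windows of genes tested. The list names mitotic genes, already known for this element, so the excess is no independent result. In Plk1 the match lies 30 bases after the start site, and the 30-base stretch around it is at chr7:122159453-122159482 of GRCm38.p6, plus strand.
Plk1: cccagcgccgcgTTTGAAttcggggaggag

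**Figure D4:**
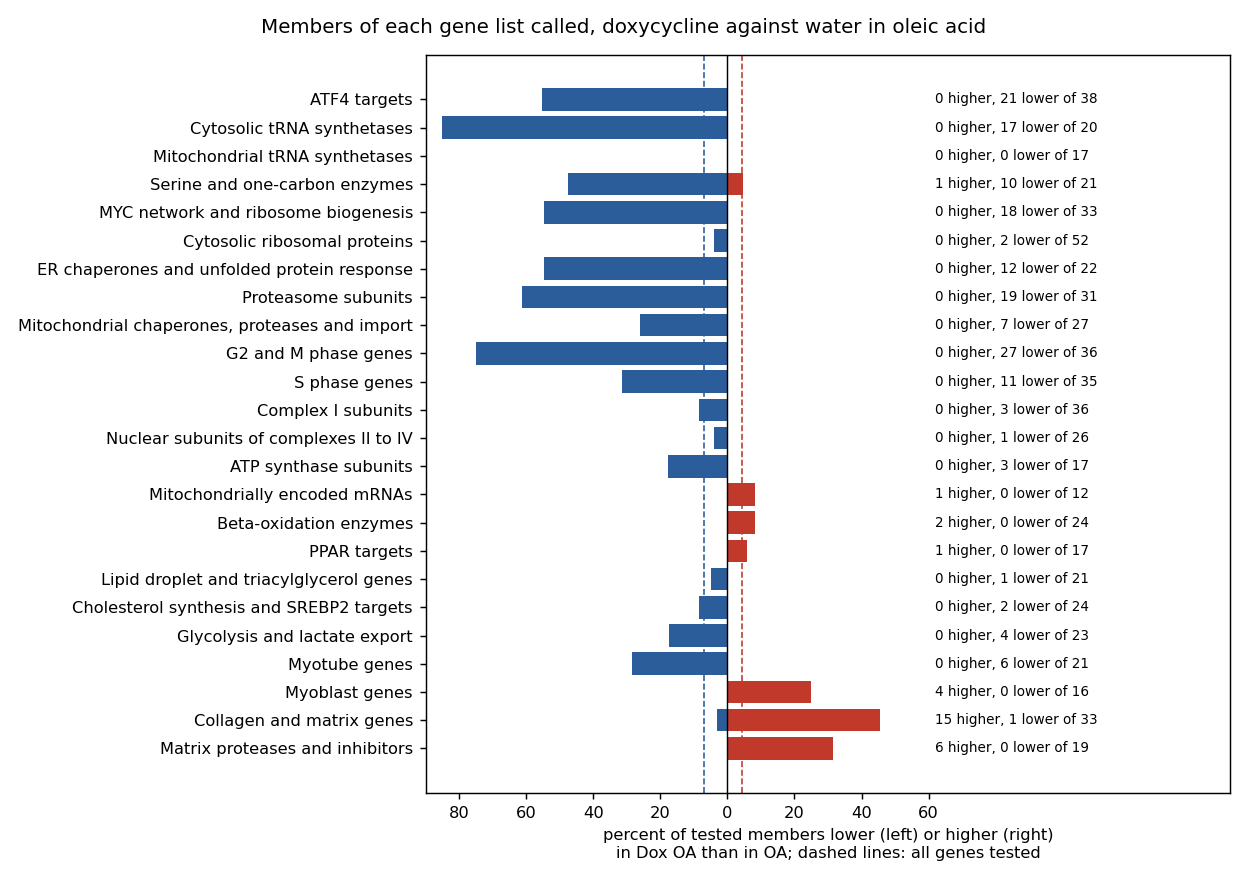
Bars give, for 24 of the gene lists, the percent of tested members that fell (left) or rose (right) in Dox_OA against OA, with the counts at the right margin. The dashed lines mark the same shares over all genes tested, 7.01% lower and 4.29% higher. Cytosolic synthetases, mitotic genes, proteasome subunits and ATF4 targets reach far to the left. Of the lists drawn collagen and matrix genes reach farthest to the right.

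C2C12 myoblasts leave the cell cycle when they fuse into myotubes. Of 21 measured myotube genes 6 fell (28.6%, against 7.01% of all genes), none rose and 15 did not pass (median -0.25). Myh3, embryonic myosin heavy chain, was at 3.22, 3.24, 3.18 and 2.57 FPKM in OA and at 1.33, 1.4, 1.62 and 1.71 in Dox_OA. Actc1, cardiac actin, was at 6.13, 5.65, 4.85 and 3.76 FPKM in OA and at 1.97, 3.46, 2.36 and 2.44 in Dox_OA. Mymk, the fusion protein myomaker, was at 9.57 ± 1.15 and 6.47 ± 0.359 FPKM. None of these overlapped between groups, with log2 changes of -0.69 ± 0.10, -0.78 ± 0.17 and -0.50 ± 0.11 (limma adjusted p at most 0.0038). Myog, the factor that starts terminal differentiation, overlapped and did not pass (-0.39 ± 0.18, limma adjusted p = 0.184). Only 3 of the myotube genes fell without Dox_OA library 1 or 3, or without OA library 1 or 2. Of 16 myoblast genes 4 rose (25%, against 4.29% of all genes) and none fell (median 0.12). Myod1, the master regulator of the lineage, was at 42.2, 38.1, 38.2 and 36 FPKM in OA and at 44.4, 49.6, 43.3 and 44.3 in Dox_OA (0.23 ± 0.05, limma adjusted p = 0.00768). Itga7, a laminin receptor of muscle, rose by 0.18 ± 0.03. With no minimum on FPKM 2 of the 16 rose, and with the fixed FPKM sum 7 did.

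Of 33 collagen and matrix genes 15 rose, 1 fell and 17 did not pass (median 0.15), against 4.29% of all genes that rose. The groups did not overlap, with Dox_OA above, for 18 of the 33 and for 7.33% of all genes, and with Dox_OA below for 3 of the 33 and 10.9% of all. Col5a2, a chain of fibrillar collagen V, was at 211, 208, 203 and 210 FPKM in OA and at 243, 238, 248 and 253 in Dox_OA. Col6a1, of the pericellular collagen VI, was at 363, 375, 363 and 365 FPKM in OA and at 426, 449, 433 and 425 in Dox_OA. The step was small but no library crossed it, at 0.24 ± 0.03 and 0.24 ± 0.04 (limma adjusted p = 4.96e-06 and 0.000128). Col6a3 rose by 0.43, Col4a2 of basement membranes by 0.26 and the matricellular gene Thbs2 by 0.19. Col4a2 overlaps Col4a1 on the other strand. Of 19 matrix proteases and inhibitors 6 rose (31.6%, against 4.29% of all genes) and none fell. Mmp2, a gelatinase, rose by 0.21 ± 0.03 and Mmp9 as above. Among 21 genes of the IGF and TGF-beta axis 5 rose (23.8%, against 4.29% of all genes) and none fell. They included Tgfb2, a ligand (0.29 ± 0.05), and Bmp1, the protease that trims procollagens (0.35 ± 0.07). Of 15 interferon-stimulated and MHC class I genes 4 rose (26.7%, against 4.29% of all genes), Ifi27 by 0.30 ± 0.07. That count dropped to 1 without OA library 2. The chemokine gene Ccl5 was at 37.5, 39.5, 32 and 27.6 FPKM in OA and at 56.7, 51.3, 53.5 and 45.2 in Dox_OA (0.59 ± 0.10, limma adjusted p = 0.000724). H19, an imprinted long non-coding RNA, rose from 42.7 ± 4.46 to 58.5 ± 1.93 FPKM (0.45 ± 0.08).

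Of 36 nuclear complex I genes 3 fell and none rose (median -0.05), a share of 8.33% that is near the 7.01% of all genes. Of 26 nuclear genes of complexes II to IV 1 fell (3.85%, median -0.02, or 0.01 with the fixed FPKM sum). Of 17 ATP synthase subunits 3 fell (17.6%). Atp5b, the catalytic beta subunit, was at 314, 315, 317 and 318 FPKM in OA and at 274, 268, 284 and 287 in Dox_OA. Atp5a1, the alpha subunit, was at 338 ± 6.92 and 295 ± 6.27 FPKM, with Haus1 on the other strand. Both were lower without overlap, at -0.18 ± 0.04 and -0.19 ± 0.03 (limma adjusted p = 0.00165 and 0.000566). Of 12 messenger RNAs encoded in the mitochondrial genome 11 had values above 0 and the median was 0.26, but only mt-Cytb passed. It was at 1556, 1698, 1936 and 2186 FPKM in OA and at 2424, 2395, 2481 and 2313 in Dox_OA (0.39 ± 0.10, limma adjusted p = 0.0146), and it lost its call without OA library 1 (limma adjusted p = 0.0601) or 2 (0.0513). The OA libraries spread far more than the Dox_OA libraries in this gene, as in mt-Co1 (3330 ± 495 against 3745 ± 41.5 FPKM). Ucp2, a relative of Ucp1, was at 14.5, 15.3, 13.1 and 13.2 FPKM in OA and at 18.4, 17.6, 15.9 and 16.2 in Dox_OA (0.26 ± 0.07, limma adjusted p = 0.0133, or 0.0535 without Dox_OA library 1).

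Plin2, the coat protein of lipid droplets, was at 70.4, 73.4, 64 and 72.7 FPKM in OA and at 74.4, 73.3, 66.9 and 66.3 in Dox_OA. Cpt1a, which admits long-chain fatty acids to mitochondria, was at 53.9, 53.3, 52.6 and 54.9 FPKM in OA and at 55, 56, 52.6 and 55.1 in Dox_OA. Both pairs of groups overlapped, with differences of 0.00 ± 0.04 and 0.03 ± 0.03 (limma adjusted p = 0.988 and 0.683). Of 24 enzymes of beta-oxidation 2 were higher and the other 22 missed the threshold (median 0.03), and of 17 PPAR targets 1 rose. These shares of 8.33% and 5.88% stand beside 4.29% of all genes that rose. Of 21 lipid droplet and triacylglycerol genes 1 fell (4.76%, against 7.01% of all). It was Abhd5, the activator of the lipase ATGL, from 6.73 ± 0.41 to 5.46 ± 0.0667 FPKM (-0.26 ± 0.06, limma adjusted p = 0.00822). Angptl4, a PPAR target that inhibits lipoprotein lipase, was at 168, 177, 153 and 146 FPKM in OA and at 189, 196, 186 and 182 in Dox_OA. Its groups did not overlap, yet the test missed the threshold (0.23 ± 0.08, limma adjusted p = 0.0721), and it passed in 4 alternatives, at 0.0361 with only the groups compared, 0.0222 with the fixed sum, 0.0386 with limma-voom and 0.00856 with the replicate block. Of 24 cholesterol synthesis genes 2 fell (8.33%, near the share of all genes), Sqle by 0.31 among them. Of 15 fatty acid synthesis and desaturation genes 2 fell (13.3%, against 7.01% of all genes) and 1 rose (6.67%, against 4.29%). The list median was -0.08, with 13 of 15 values below 0. The riser was Scd1, a fatty acid desaturase gene, by 0.19.

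Glycolytic and hypoxia genes gave a mixed picture. Of 23 glycolysis and lactate export genes 4 fell (17.4%, against 7.01% of all genes) and none rose. That count of falls was 2 without OA library 2 and 7 with a replicate block. Pgam1, phosphoglycerate mutase, was at 382, 383, 367 and 361 FPKM in OA and at 327, 326, 299 and 310 in Dox_OA (-0.24 ± 0.05, limma adjusted p = 0.00491). Of 20 targets of hypoxia-inducible factor outside glycolysis 4 fell (20%, against 7.01% of all genes) and 1 rose (5%, against 4.29%). There was 1 fall left without Dox_OA library 3 or 4, and there were 8 falls with a replicate block. Stc1, a secreted glycoprotein gene, fell from 6.2 ± 0.779 to 4.18 ± 0.8 FPKM (-0.48 ± 0.11, limma adjusted p = 0.00588). The riser was Car9 (chromosome 4, 43506966 to 43513729), a carbonic anhydrase of the cell surface. It was at 11.3, 10.7, 11.7 and 8.89 FPKM in OA and at 16.5, 13.3, 15.2 and 15.7 in Dox_OA (0.48 ± 0.07, limma adjusted p = 0.000112). Of 27 NRF2 targets and antioxidant genes 6 fell (22.2%, against 7.01% of all genes) and none rose. Txnrd1, thioredoxin reductase, fell by 0.29 and Hmox1, heme oxygenase, by 0.32, the latter with overlapping libraries.

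Large falls outside these groups included Hmga2, a chromatin protein gene of proliferating progenitors. It was at 8.48, 9.07, 10.5 and 10.6 FPKM in OA and at 5.28, 4.51, 6.04 and 5.82 in Dox_OA (-0.73 ± 0.10, limma adjusted p = 4.13e-05). Dynap went from 39.5 ± 1.26 to 23.2 ± 2.63 FPKM (-0.75 ± 0.08, limma adjusted p = 1.4e-06). Lce1g (-0.89), Sprr2h (-0.84) and Prl2c2 (-0.84) had the largest, at 3.5 FPKM or less in OA, but each belongs to a cluster of near-identical genes among which reads can be split, so their values are uncertain. Lce1g and Sprr2h lost their calls with a pseudocount of 0.1 (limma adjusted p = 0.0605 and 0.0577). Mtfp1, a factor of mitochondrial fission, was called at -0.65 ± 0.20 (limma adjusted p = 0.0395) and lost the call in 9 of 15 alternatives. These were no filter, the fixed sum, the replicate block, and the fits without Dox_OA library 1 or 4 or any single OA library (limma adjusted p = 0.0501 to 0.129).

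Next, the response was set against the same switch in albumin. There 281 genes changed (2.18%), and of the 553 genes that rose in oleic acid 486 had the same sign (87.9%) and 70 also rose. Those 70 made up 12.7% of the rises in oleic acid and 49% of the 143 in albumin. Of the 905 that fell, 777 had the same sign (85.9%), 77 also fell and 20 rose. Over all 12904 genes 65.2% had the same sign. The 2 comparisons share no library. The difference between them was tested directly as an interaction, and 82 genes passed (0.635%), 70 with the lower response in oleic acid (0.542%) and 12 with the higher (0.093%).

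ATF4 targets made up a large share of the genes with an interaction. In albumin 18 of the 38 rose (1.11% of all genes did) and none fell (1.07% of all did), with a median of 0.28, in oleic acid 21 fell and none rose, and 24 of the 38 passed the interaction, all lower in oleic acid. Chac1 was at 6.91, 7.84, 7.1 and 6.06 FPKM in BSA and at 17.4, 16.1, 13.4 and 15.5 in Dox_BSA. Trib3 was at 2.19, 3.21, 2.59 and 2.48 FPKM in BSA and at 11.3, 10.1, 7.32 and 10.6 in Dox_BSA. The same switch thus raised both in albumin, by 1.06 ± 0.10 and 1.57 ± 0.11, and lowered them in oleic acid, with interactions of -1.89 ± 0.14 and -2.37 ± 0.15 (limma adjusted p = 9.82e-09 and 5.47e-10). Asns (-1.11 ± 0.07), Aldh1l2 (-1.39 ± 0.07), Slc7a5 (-0.97 ± 0.06), Sesn2 (-0.94 ± 0.10) and Gpt2 (-0.83 ± 0.07) also had opposite calls in the 2 media. Phgdh and Psat1 did not pass in albumin (-0.03 ± 0.05 and 0.02 ± 0.04), and neither did Atf4 (0.05 ± 0.06), yet the interaction passed for all 3, at -0.78, -0.81 and -0.56. Ddit3 and Atf3, which did not pass in oleic acid, rose in albumin by 0.46 and 0.88 (interactions -0.54 and -1.0, limma adjusted p = 0.0055 and 0.00511). These interaction calls were lost for Ddit3 with limma-voom (limma adjusted p = 0.0519) and for Atf3 with only the groups compared (limma adjusted p = 0.101). Atf3 averaged only 0.262, 1.33, 0.591 and 0.491 FPKM in BSA, Dox_BSA, OA and Dox_OA. Its interaction ran from -2.94 to -0.92 in the alternatives, so its size is uncertain. Of the 20 cytosolic synthetases 4 rose in albumin and 13 passed the interaction, all lower in oleic acid. Among all genes 1.11% rose in albumin and 0.542% passed the interaction with the lower response in oleic acid.

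**Figure D5:**
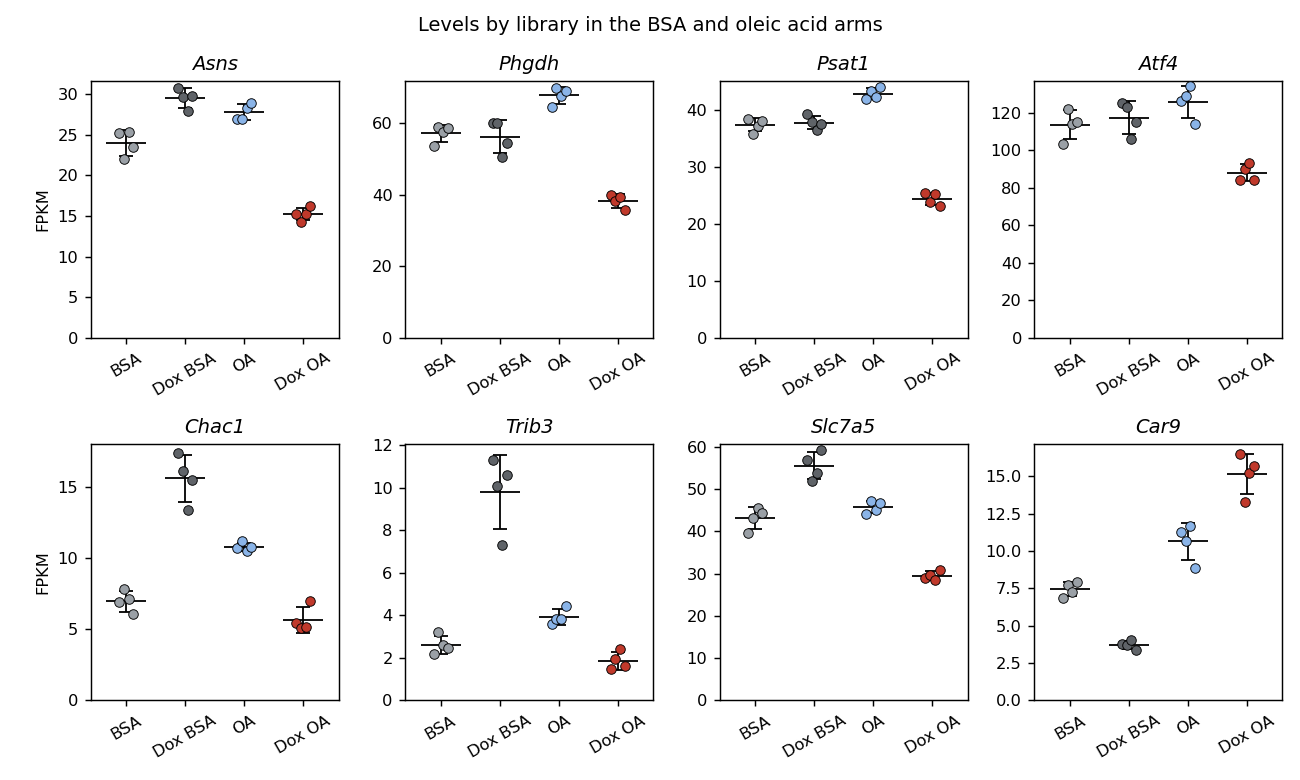
Points are FPKM of single libraries and bars the mean and SD of 4, from 0, in albumin (BSA, Dox_BSA) and oleic acid (OA, Dox_OA). Asns, Phgdh, Psat1, Atf4, Chac1, Trib3 and Slc7a5 have their lowest mean in Dox_OA, and Car9 has its highest mean there and its lowest in Dox_BSA.

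Car9 had the largest interaction upward. It was at 6.89, 7.76, 7.28 and 7.96 FPKM in BSA and at 3.75, 3.74, 4.05 and 3.41 in Dox_BSA, so that doxycycline lowered it by 0.84 in albumin and raised it by 0.48 in oleic acid (interaction 1.32 ± 0.10, limma adjusted p = 1.06e-08). Podnl1, a secreted leucine-rich repeat gene (0.39 ± 0.07, limma adjusted p = 0.00292), and Adamts1, a matrix protease gene (0.34 ± 0.06, limma adjusted p = 0.00314), rose in oleic acid and did not pass in albumin. Of the 36 mitotic genes 6 fell in albumin (median -0.16), Plk1 by 0.27 on the log2 scale, and none passed the interaction. Myh3 (-0.97) and Actc1 (-1.23) fell in albumin as well. Of the 24 cholesterol genes 12 fell in albumin, where 1.07% of all genes did, and 2 fell in oleic acid, where 7.01% did. Only Hmgcs1 passed the interaction (0.29 ± 0.07, limma adjusted p = 0.0445), and that call was lost in 15 of 23 alternatives.

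Under oligomycin with oleic acid the switch moved 5903 genes (45.7%), 22% upward and 23.7% downward. ATF4 targets fell there in 37 of 38 cases, some from far higher levels. Asns went from 134 ± 4.82 FPKM in OOA to 43.6 ± 1.93 in Dox_OOA and Chac1 from 141 ± 12.2 to 47.1 ± 7, against 27.8 to 15.3 and 10.8 to 5.68 in oleic acid alone. The mitotic genes went the other way, with 36 of 36 higher in Dox_OOA than in OOA and Plk1 at 0.81. The proteasome fell in 16 of 31 cases. Nothing in the labels says that replicates came from separate cultures, so p-values measure the spread between these libraries, which may be technical. The differences between oleic acid with and without oligomycin were not tested here.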

How the data were processed

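RNA of 24 libraries, 4 in each of 6 groups, was sequenced by the authors, and the deposited table gives FPKM per gene and library for 56748 genes, with gene lengths. Per the submitters' processing notes, DESeq2, edgeR, HTSeq, STAR-Fusion, STAR and HISAT2 were used with builds GRCm39 and mm39, with no roles or versions. Genes with at least 1 FPKM in at least 4 libraries (12904) were tested on log2(FPKM + 1) with limma 3.58.1 in R 4.3.3, with 1 mean per group (18 residual degrees of freedom), a trend, robust variances and Benjamini-Hochberg adjustment at 0.05. The interaction is the doxycycline difference in oleic acid minus that in albumin. FPKM times gene length fell on whole reads within 0.01, which gave the depths and a limma-voom alternative. The limma fit was checked on simulated data with known changes.

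The genes named were Ucp1, the 15 largest non-overlapping changes per direction among named protein-coding genes, the 8 members at most per list that had the lowest p, the 10 largest interactions per direction and a fixed set of key genes. Members and lists were chosen with earlier results of these data known. Promoter sequences are from RefSeq (GRCm38.p6). Alternatives were another pseudocount, no filter, 2 scalings, only the groups compared, limma-voom, a replicate block and leaving out each library. A few genes are not reported here.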

Additional observations from a re-analysis of the deposited data

Results flagged for a closer look

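For 40 of the genes described, the doxycycline response in oleic acid differed from that in albumin by the interaction test (limma adjusted p under 0.05). Values are log2 differences, oleic acid minus albumin. Among ATF4 targets the response was lower in oleic acid for Chac1 (-1.89), Asns (-1.11), Phgdh (-0.78), Trib3 (-2.37), Psat1 (-0.81), Aldh1l2 (-1.39), Mthfd2 (-0.98), Atf5 (-0.92), Psph (-0.82), Shmt2 (-0.65), Aldh18a1 (-0.49), Gpt2 (-0.83), Slc7a5 (-0.97), Slc7a1 (-0.49), Slc3a2 (-0.55), Ddit3 (-0.54), Atf3 (-1.0), Sesn2 (-0.94) and Eif4ebp1 (-0.60). Outside that list it was lower for Atf4 (-0.56), Bcat1 (-0.51), Nars (-0.58), Tars (-0.49), Gars (-0.60), Aars (-0.60), Iars (-0.41), Herpud1 (-0.37), Psma6 (-0.25), Hspa9 (-0.35), Npm1 (-0.35) and Adm2 (-1.22). It was higher in oleic acid for Car9 (1.32), P2rx5 (0.53), Tgm2 (0.53), Ankrd13d (0.48), Tmem53 (0.46), Spon2 (0.42), Podnl1 (0.39), Adamts1 (0.34) and Hmgcs1 (0.29). The calls of Ankrd13d, Npm1, Hmgcs1, Psma6, Tgm2 and Herpud1 were lost in 13 to 20 of 23 alternatives. Calls were also lost for P2rx5 in 8, Tmem53 in 7, Eif4ebp1 in 2, and Spon2, Atf3 and Ddit3 in 1 alternative each. Adm2 kept its call, but averaged only 0.157, 0.846, 0.726 and 0.175 FPKM in BSA, Dox_BSA, OA and Dox_OA. It passed the minimum of 1 FPKM through the oligomycin groups (10.3 in OOA). Its interaction ran from -4.74 to -1.14 in the alternatives, so its size is uncertain. The size is uncertain for Atf3 as well (-2.94 to -0.92).

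In 11 of 288 groups of 4 libraries examined (3.82%), 1 library stood far from the other 3. Chance alone sets about 1 in 20 such groups apart. Lce1g was at 2.29 FPKM in Dox_OA library 2, against 0.719 to 0.985 in the others. Bcat1 was at 5.16 FPKM in Dox_OA library 4, against 4.49 to 4.55 in the others. Atf3 was at 1.02 FPKM in Dox_OA library 2, against 0.247 to 0.35 in the others. Tars was at 27.3 FPKM in Dox_OA library 3, against 24.7 to 25.1 in the others. Psmd2 was at 91.8 FPKM in Dox_OA library 4, against 87 to 87.4 in the others. Dkc1 was at 22.4 FPKM in OA library 4, against 20.2 to 20.5 in the others. Myc was at 35.5 FPKM in OA library 2, against 35 to 35.1 in the others. Pcna was at 49.9 FPKM in Dox_OA library 3, against 43.3 to 44.1 in the others. Col6a1 was at 375 FPKM in OA library 2, against 363 to 365 in the others. Myh3 was at 2.57 FPKM in OA library 4, against 3.18 to 3.24 in the others. Stc1 was at 2.98 FPKM in Dox_OA library 1, against 4.49 to 4.68 in the others.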

How the results depend on the processing

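With no minimum on FPKM 935 genes changed, 354 upward and 581 downward, which adjusts over far more genes, and with a fixed FPKM sum 575 genes fell. Leaving out each OA or Dox_OA library in turn gave 963 to 1250 changed genes, 360 to 485 rises and 591 to 765 falls, the lowest without OA library 2 for changes and falls and without Dox_OA library 2 for rises; fewer samples enter these fits. Over all genes, same-numbered OA and Dox_OA libraries did not deviate together (correlations of -0.04 to 0.05). Single genes can still follow the numbers. Txnip, chosen after its values were seen, was at 37, 36.3, 30.7 and 31.7 FPKM in OA. In Dox_OA it was at 37.4, 36.8, 30.3 and 30.6 FPKM. Libraries 1 and 2 lay above libraries 3 and 4 in every other group too, as in OOA (44.5, 42.9, 26.7 and 23.1 FPKM). Whether the numbers pair the libraries cannot be told, and with a replicate block 1736 genes changed. The interaction count of 82 ran from 57 to 99. Of 2145 alternative values for 143 genes described, 97 lost their call, 4 gained it and 0 reversed, and of 920 for the 40 interactions 114 lost it and 0 reversed.

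Among list counts, falls of mitochondrial ribosomal proteins (6) dropped to 2 to 3 in 10 alternatives, NRF2 targets (6) reached 10 with limma-voom, and imprinted genes (3 rises) dropped to 1 without several single libraries. A difference that missed the threshold was not called at this depth and number of libraries, which does not show its absence. Angptl4, for example, missed it in the main fit and passed in 4 alternatives.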
